A study of Mus musculus with 8 samples.

Results

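The vomeronasal, taste and trace amine receptor genes were examined for trimethylation of histone H3 at lysine 27 (H3K27me3) in mouse embryonic stem cells. A gene belonged to the set when its symbol began with Vmn1r, Vmn2r, Tas1r, Tas2r or Taar and an interval of the deposited count table matched its span in the mm10 annotation, with an overlap of at least 0.5 of their union. This gave 246 of 20278 genes, with 1 interval each: 108 Vmn1r, 86 Vmn2r, 3 Tas1r, 34 Tas2r and 15 Taar genes. Of the Vmn2r genes, 3 are annotated as transcribed pseudogenes. The table holds chromosomes 1 to 10, X, Y and M, on which RefSeq lists 322 coding genes of these families, and 243 of them had a matching interval. Of the 79 without one, 68 were Vmn1r genes between 20121656 and 23251682 on chromosome 7 and are not analysed here.

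The cells were E14tg2a, an embryonic stem cell line of 129SV background, carrying a stably expressed cRAF-ErT2 cassette, a fusion of the RAF kinase that 4-hydroxytamoxifen (4OHT) switches on. The design asks what happens on activation of ERK signalling. All cells grew in serum medium with LIF and 2 µM Chir99021, and for the last 24 h before treatment in serum medium with LIF and 250 nM PD173074, an inhibitor of FGF receptors. Clone A and clone B were each taken untreated (0 h) and after 2 h in 250 nM 4OHT, which gave 4 H3K27me3 libraries, 1 per clone and time. Both clones come from 1 line, so p-values for the 2 h comparison measure only the spread between these clones. Column totals ran from 70378127 to 92518605 counts.

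Vomeronasal receptors of the V1R type (Vmn1r) are expressed in apical neurons of the vomeronasal organ and respond to small molecules such as steroids, while the V2R type (Vmn2r), with a large extracellular domain, is found in basal neurons and responds to peptides and proteins. Tas1r genes encode the subunits of the sweet and umami receptors, Tas2r genes encode bitter receptors, and Taar genes encode trace amine receptors, most of them used by olfactory neurons. Most of these genes lie in clusters of close relatives, and they are known mainly from a few sensory cell types. H3K27me3 is deposited by Polycomb repressive complex 2, which in stem cells is concentrated at silent developmental genes whose promoters are rich in CG dinucleotides.

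The sequence before the annotated start of a member of each family is shown because it lets the number of CG dinucleotides be compared with that of a strong H3K27me3 target of this table. A window from 250 bases before to 50 bases after the start was found in the RefSeq promoter table (GRCm38.p6) for 217 of the 246 genes. Each line below gives the 150 bases before the start, 5′ to 3′, with every CG in capitals. The genes are the member of highest density in each family, followed by Hoxd13, a developmental gene of the Hoxd cluster. Their positions are chr1:182158099-182158248 (minus strand) for Vmn1r1, chr5:108852511-108852660 (minus strand) for Vmn2r9, chr4:139653388-139653537 (plus strand) for Tas1r2, chr6:42215178-42215327 (plus strand) for Tas2r144, chr10:23970556-23970705 (plus strand) for Taar5 and chr2:74668075-74668224 (plus strand) for Hoxd13.
Vmn1r1: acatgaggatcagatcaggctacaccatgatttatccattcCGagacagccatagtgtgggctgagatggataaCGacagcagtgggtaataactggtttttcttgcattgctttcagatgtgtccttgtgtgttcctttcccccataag
Vmn2r9: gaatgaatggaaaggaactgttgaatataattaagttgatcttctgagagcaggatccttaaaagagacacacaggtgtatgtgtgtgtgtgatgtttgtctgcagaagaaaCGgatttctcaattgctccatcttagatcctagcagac
Tas1r2: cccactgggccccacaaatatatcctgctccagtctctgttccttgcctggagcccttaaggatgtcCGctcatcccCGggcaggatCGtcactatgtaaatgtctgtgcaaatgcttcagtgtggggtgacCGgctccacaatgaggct
Tas2r144: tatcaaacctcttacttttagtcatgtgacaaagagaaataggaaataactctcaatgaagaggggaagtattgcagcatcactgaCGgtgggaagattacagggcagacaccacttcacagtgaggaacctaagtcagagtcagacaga
Taar5: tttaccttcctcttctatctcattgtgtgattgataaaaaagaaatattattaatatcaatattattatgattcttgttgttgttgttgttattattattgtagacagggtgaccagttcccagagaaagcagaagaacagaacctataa
Hoxd13: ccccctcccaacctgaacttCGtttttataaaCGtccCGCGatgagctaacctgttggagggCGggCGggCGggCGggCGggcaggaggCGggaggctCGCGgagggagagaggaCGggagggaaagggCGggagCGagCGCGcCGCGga

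The 5 receptor stretches hold between 0 and 4 CG, and the Hoxd13 stretch holds 19. Over the full 300-base windows the median number of CG was 1 for Vmn1r (94 windows), 1 for Vmn2r (79), 5 for Tas1r (3), 1 for Tas2r (30) and 2 for Taar (11), against 8 over the windows of all genes. CG reads the same on both strands. At least 1 CG was present in 73.7% of the members' windows and in 94.1% of those of all genes, and 10 or more in 1 member, Vmn2r29, which was singled out after its values were seen, against 46.1% of all genes. Many Vmn1r, Tas2r and Taar models have lengths in multiples of 3 (88 of 108, 34 of 34 and 14 of 15). Where such a model holds coding sequence alone, as the short ones may, its window lies before the coding start rather than before a mapped transcription start. Within families, density and CG number had Spearman correlations of -0.00 over 94 Vmn1r genes, 0.12 over 79 Vmn2r genes and 0.08 over 30 Tas2r genes. Over only 11 Taar genes the value was 0.32. The genes share their libraries.

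Averaged over its interval, none of the 246 matched receptor genes had the H3K27me3 density of a strong target. A mark confined to part of an interval, or lying before it, was not examined. Density is the count in the gene's interval per kb of its length and per 1000000 counts of the library, averaged over the 4 libraries, and it is given as a multiple of the median gene, whose density was 0.357. At or above 4 times the median gene there were 0 of 246 members, where 5.76% of all genes passed that limit. At or above 2 times there were 4 members, where 18.8% of all genes passed: Tas2r144, Taar5, Vmn1r1 and Vmn1r181. The median over all members was 0.881 times the median gene. The same table gave 12.6 times for the 20 Hoxa and Hoxd genes, from 9.66 to 15.6, and 0.223 times for 8 genes used by all cells. The 7 stem cell genes in the table had a median of 0.333 times, with Dppa3 at 5.45 times and the others at or under 0.694.

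**Figure D1:**
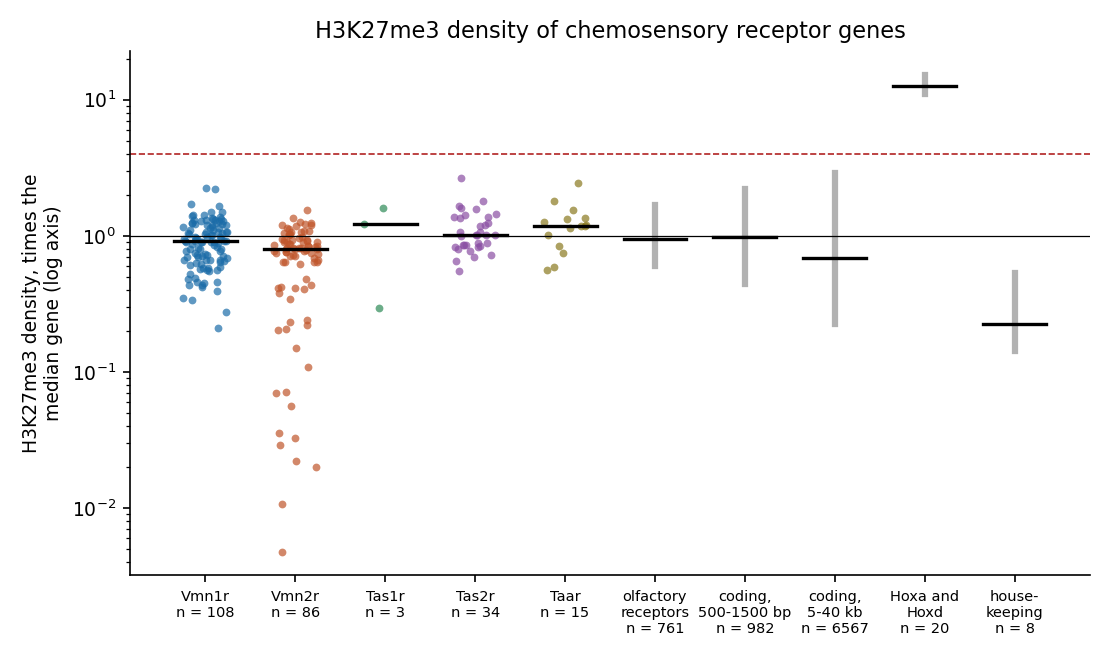
H3K27me3 density of each receptor gene (1 point per gene, mean of 4 libraries) as a multiple of the median gene, on a log axis, by family; black bars are medians and grey bars the range from the 10th to the 90th percentile of comparison sets. All 246 receptor genes sit under the dashed line at 4 times the median gene, the Hoxa and Hoxd genes sit above it, and among the receptors only Vmn2r genes extend below 0.2 times.

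The family medians were close to one another. Vmn1r genes had a median of 0.910 times the median gene, Vmn2r 0.795, Tas1r 1.22, Tas2r 1.02 and Taar 1.18. Olfactory receptor genes, the other large chemosensory family, had 0.942 (n = 761). Coding genes of 500 to 1500 bp, the size of most of these receptors, had 0.975 (n = 982), many of them olfactory receptors, and 1.03 without those (n = 338), of which 10.7% reached 4 times the median gene. Coding genes of 5000 to 40000 bp, the size of most Vmn2r genes, had 0.692 (n = 6567). On the scale of counts per kb per 1000000, the medians in single libraries were 0.306 to 0.318 for all members, 0.308 to 0.326 for Vmn1r, 0.268 to 0.289 for Vmn2r, 0.361 to 0.396 for Tas2r and 0.398 to 0.484 for Taar. The middle 80% of members lay between 0.399 and 1.35 times the median gene, against 0.252 to 2.83 over all genes. The table holds no input counts, so these values include background and any difference in how many reads can be placed.

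Counts were small for the single-exon families, which sets the precision of single genes. The median count per library was 28.3 for Vmn1r, 27.8 for Tas2r and 37.5 for Taar genes, against 404 for Vmn2r genes, whose intervals span introns and have a median length of 23.8 kb. The median coefficient of variation over the 4 libraries was 21.4% for Vmn1r and 16.5% for Tas2r, close to the 18.8% and 19.0% that counting error alone gives. For Vmn2r genes it was 7.04%, with 4.98% from counting. Across members, densities in pairs of libraries had Spearman correlations of 0.90 to 0.98 for Vmn2r and 0.67 to 0.78 for Vmn1r (86 and 108 genes of the same libraries).

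Among the V1R genes the highest values belonged to Vmn1r1, Vmn1r181 and Vmn1r77. Vmn1r1 lies alone on chromosome 1 (chr1:182157178-182158098), away from the family's main clusters on chromosomes 6 and 7. Its density at 0 h was 0.571 in clone A against 0.948 in clone B, and at 2 h 0.669 against 1.01, a mean of 0.799 ± 0.212 (SD, n = 4) or 2.24 times the median gene. Both clone B libraries were above both clone A libraries. Vmn1r181 (chr7:23983961-23985048) had 1.01 and 0.848 at 0 h and 0.735 and 0.573 at 2 h in clones A and B, or 2.21 times the median gene, with both 0 h libraries above both 2 h libraries. Vmn1r77 had 1.70 times the median gene. The lowest Vmn1r genes with at least 20 counts per library on average were Vmn1r83 at 0.571 and Vmn1r172 at 0.576 times. Below that count, Vmn1r170, named after its values were seen, had counts of 5, 10, 2 and 5 and a density 0.210 times the median gene.

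The larger clusters of Vmn1r genes had similar medians. The 27 genes from Vmn1r4 to Vmn1r31 on chromosome 6 had a median of 0.902 times the median gene, the 15 from Vmn1r40 to Vmn1r54 on the same chromosome 1.16, the 24 from Vmn1r66 to Vmn1r89 on chromosome 7 0.877, and the 16 from Vmn1r167 to Vmn1r183 0.958. The clusters were defined as runs of members with gaps of at most 1000000 bp. Their ranges overlapped throughout, the first starting at 0.276 and the last reaching 2.21.

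V2R genes separated by position. The 22 genes from Vmn2r29 to Vmn2r52 on chromosome 7 (chr7:7212996-10176286) had a median of 0.177 times the median gene, with a range of 0.0107 to 0.799. The other clusters of at least 4 genes had medians between 0.742 (8 genes, Vmn2r1 to Vmn2r7 on chromosome 3) and 1.10 (4 genes, Vmn2r80 to Vmn2r83 on chromosome 10). Of the 17 Vmn2r genes under 0.25 times the median gene, the chromosome 7 cluster held most. All 10 of the members under 0.1 times were Vmn2r genes, and 1.01% of all genes were that low. No test was made of this split, since the clusters were compared after their values were seen.

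The highest V2R gene was Vmn2r9 on chromosome 5 at 1.54 times the median gene, with densities of 0.605 and 0.544 at 0 h and 0.580 and 0.467 at 2 h in clones A and B. Vmn2r19 on chromosome 6 followed at 1.35 and Vmn2r80 on chromosome 10 at 1.26. Vmn2r1 and Vmn2r2, of the V2R subfamily that is expressed broadly together with other V2R genes, had 0.744 and 0.868 times the median gene, but their intervals overlap, so their counts are partly the same reads. The lowest of at least 20 counts per library were Vmn2r41 and Vmn2r36 in the chromosome 7 cluster, at 0.0292 and 0.0356 times. Vmn2r36 had counts of 30 and 17 at 0 h and 17 and 42 at 2 h over 25810 bp. Vmn2r21 on chromosome 6 (chr6:123492508-123533406, 40899 bp), named after its values were seen, had counts of 5, 6, 6 and 6. Its pooled density was between 0.00108 and 0.00256 (exact 95% Poisson interval, counting error only), where its neighbour Vmn2r20 had 363, 391, 458 and 371 counts over 32800 bp.

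**Figure D2:**
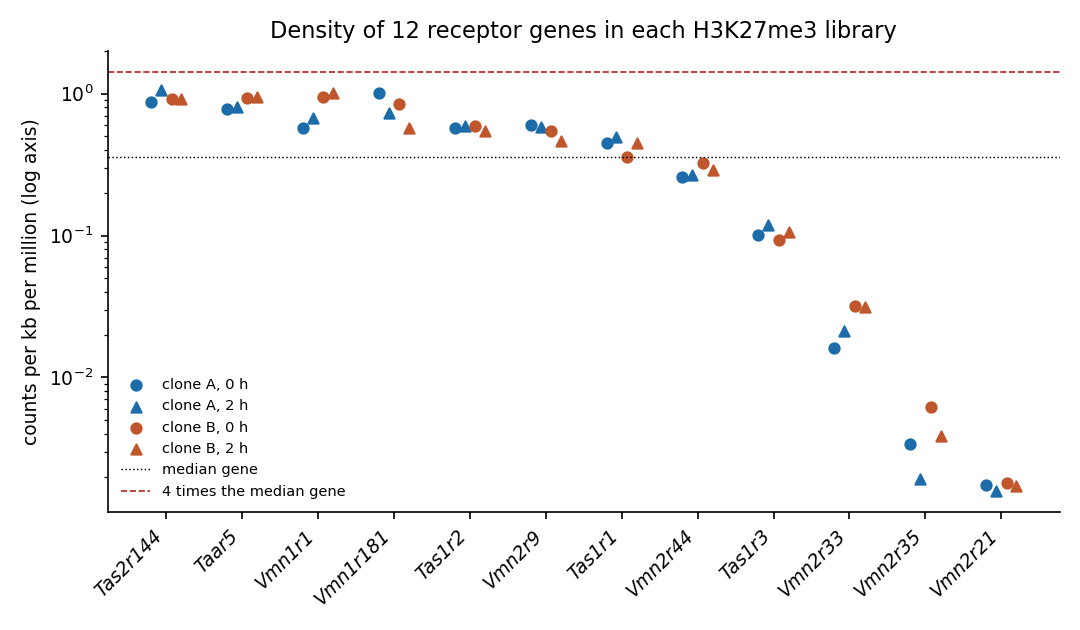
Density of 12 receptor genes in counts per kb per 1000000 (log axis) in each of the 4 H3K27me3 libraries; colour is the clone and shape the time, with lines at the median gene and at 4 times it. The first 4 genes are the members above 2 times the median gene, Tas1r3 sits at about 0.1, and Vmn2r33, Vmn2r35 and Vmn2r21 are far under their relative Vmn2r44.

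Many of the low V2R genes are near-identical to one another in the sequence before the start. Likeness over the rest of their intervals was not computed, and how reads were placed among such genes was not tested, so their single values are uncertain. The upstream sequence of a pair from the chromosome 7 cluster is shown because it lets this likeness be seen. Vmn2r33 (chr7:7566787-7566936, minus strand) and Vmn2r35 (chr7:7819868-7820017, minus strand) are 97.3% identical over the 150 bases before the start (RefSeq, GRCm38.p6), and the 4 bases that differ are in capitals.
Vmn2r33: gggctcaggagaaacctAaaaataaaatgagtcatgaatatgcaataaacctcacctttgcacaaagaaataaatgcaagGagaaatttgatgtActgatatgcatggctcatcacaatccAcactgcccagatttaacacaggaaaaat
Vmn2r35: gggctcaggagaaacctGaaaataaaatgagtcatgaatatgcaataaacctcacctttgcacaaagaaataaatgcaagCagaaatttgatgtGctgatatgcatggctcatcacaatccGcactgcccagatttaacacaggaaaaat

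Vmn2r31, Vmn2r38 and Vmn2r44 have the same 150 bases as Vmn2r33, letter for letter, yet the densities of these 4 genes ran from 0.0703 times the median gene (Vmn2r33) to 0.799 (Vmn2r44), with Vmn2r35 at 0.0107. Vmn2r33 had counts of 18 and 41 at 0 h and 31 and 42 at 2 h in clones A and B over 15820 bp. Vmn2r44, of nearly the same length at 15779 bp, had 289 and 419 at 0 h and 390 and 386 at 2 h. Vmn2r44 was thus above Vmn2r33 in every library. Vmn2r34 and Vmn2r45, another identical pair, had 0.0325 and 0.439 times the median gene, and Vmn2r40 and Vmn2r41 had 0.0223 and 0.0292. Genes with identical upstream sequence therefore had both similar and widely different densities in this table.

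To describe likeness over all members, the share of the 30-base words of each 300-base window that also occur in another window of the RefSeq table, on either strand, was computed. The median share was 35.4% for Vmn2r, 0.369% for Vmn1r and 0% for Tas2r and Taar. At 75% or more there were 19 of 79 Vmn2r genes, 15 of them in the chromosome 7 cluster, and 1.78% of all genes. Those 19 had a median of 0.234 times the median gene and the other 60 had 0.841. For Vmn1r the 5 such genes had 0.492 and the other 89 had 0.921. Among genes outside the receptor families the 264 such genes had 0.184 and the rest 0.994. Over Vmn2r genes the Spearman correlation of density with the share was -0.50 (n = 79), and over Vmn1r genes it was -0.23 (n = 94). The points share libraries and clusters. Exceptions ran both ways: Vmn2r29, in the cluster, shared 0% and had 0.240 times the median gene, and Vmn2r44 shared 93.4%. The reads' placement and the 129SV background of the cells, which can differ from the reference genome in gene copies, were not tested as sources of the low values.

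**Figure D3:**
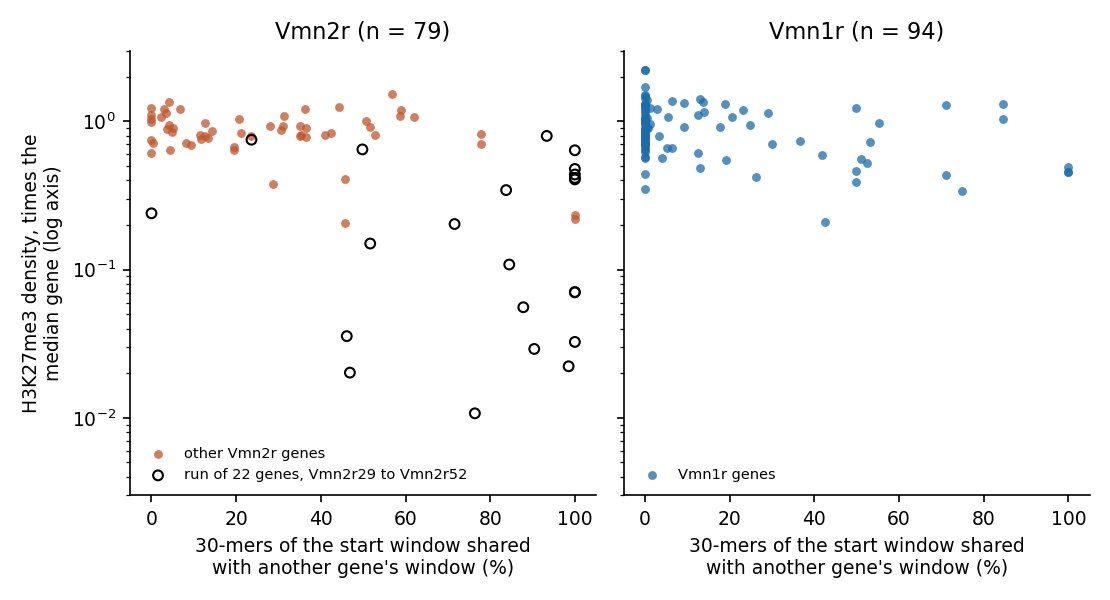
Density as a multiple of the median gene (log axis) against the percentage of 30-base words of the start window found in another window, for 79 Vmn2r genes (left) and 94 Vmn1r genes (right); open circles are the 22 genes from Vmn2r29 to Vmn2r52. The open circles reach from 0.0107 to 0.799 and lie mostly at high shared percentages, while most other genes lie between 0.5 and 1.6.

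The sweet and umami receptor genes, all on chromosome 4, differed from each other. Tas1r2, the subunit specific to the sweet receptor (chr4:139653538-139670280), had densities of 0.576 and 0.589 at 0 h and 0.595 and 0.546 at 2 h in clones A and B, 1.61 times the median gene. Tas1r1, the umami subunit (chr4:152027914-152038490), had 0.446 and 0.357 at 0 h and 0.492 and 0.450 at 2 h, or 1.22 times. Tas1r3, the subunit shared by both receptors (chr4:155859268-155863353), had 0.101 and 0.0933 at 0 h and 0.119 and 0.106 at 2 h, or 0.294 times. The order was the same in all 4 libraries, and the values of the 3 genes did not overlap within any of them. Tas1r3 lies beside Dvl1, whose interval overlaps its own so that reads may be counted for both, and 15.2 kb from Mxra8, a gene at 6.63 times the median. Their promoter windows hold 8, 5 and 5 CG, the most of any family by median.

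Bitter receptor genes differed between their chromosome 6 clusters. The 5 genes from Tas2r139 to Tas2r126 (chr6:42140936-42435461) had a median of 1.65 times the median gene and a range of 1.58 to 2.64, and the 24 genes from Tas2r130 to Tas2r140 (chr6:131629892-133055793) had 0.881 and a range of 0.549 to 1.38. The ranges of these clusters did not overlap. The 3 genes from Tas2r137 to Tas2r138 on the same chromosome had a median of 1.20, between the medians of these clusters. Their range, 0.841 to 1.42, overlapped that of the 24 genes. Tas2r118, which lies alone, had 1.46. No test was made, for the reason given for the V2R clusters. Tas2r144 was the highest of all 246 members, with densities of 0.873 and 0.923 at 0 h and 1.06 and 0.918 at 2 h in clones A and B, a mean of 0.943 ± 0.0800 (SD, n = 4) or 2.64 times the median gene. Tas2r126 had 1.80 and Tas2r139 1.65 times. The first cluster lies near genes at or above 4 times the median: Tas2r143, Tas2r135 and Tas2r126 are within 100 kb of 2010310C07Rik, which had 6.20 times and is 19.7 kb from the nearest of them, and Tas2r144 is 99.0 kb from Fam131b, which had 4.92 times. For all 34 Tas2r genes the median distance to such a gene was 2101 kb, and for all genes it was 441 kb. Within 100 kb of such a gene were 4 of the 34 Tas2r genes (11.8%) and 22.6% of all genes. Whether this nearness bears on density was not tested. The lowest bitter receptor genes with at least 20 counts were Tas2r109 at 0.728 and Tas2r102 at 0.693 times.

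All 15 trace amine receptor genes lie in 1 run on chromosome 10 (chr10:23920406-24109534), 1098 kb or more from a gene at 4 times the median, and had values from 0.565 to 2.43 times the median gene. Taar5, a receptor for trimethylamine, was highest, with densities of 0.785 and 0.934 at 0 h and 0.810 and 0.951 at 2 h in clones A and B. Taar9 followed at 1.81 and Taar6 at 1.56 times. Taar1, which unlike the others is known from the brain rather than the nose and is named here for that role, had 1.34 times. The lowest of at least 20 counts were Taar7f at 0.841 and Taar2 at 0.748 times. The interval of Taar2 is 3012 bp long, longer than that of any other Taar gene. In the libraries of clone A the Taar5 values were below both of clone B, but this gene did not pass the clone test described further on.

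Some genes that signal downstream of these receptors, or specify the cells that use them, had high values. Of 26 such genes listed, 17 lay on the chromosomes in the table, and 3 of the 17 had at least 4 times the median gene, where 5.76% of all genes did. Their median was 1.73 times. Entpd2, an ectonucleotidase of supporting taste cells, had 11.1 times the median gene, and Plcb2, the phospholipase of sweet, umami and bitter cells, had 8.16. Tfap2e, a transcription factor of basal vomeronasal neurons, had 4.32, and the taste cell channel Trpm5 had 3.11. Otop1, the proton channel of sour cells, had 3.04, and Omp, a marker of mature olfactory and vomeronasal neurons, had 2.93. These are the 6 highest of the 17. Lower in the list, and named after their values were seen, were Cnga2, an olfactory channel subunit, at 1.04, the taste G protein subunit Gnat3 at 0.747, Ric8b at 0.433 and Gnai2, the G protein subunit of V1R neurons, at 0.432 times. Over 2 h 0 of the 17 were called. Between the clones 7 were higher in clone A and 3 lower (58.8% in all), where 17.3% of all intervals were called higher and 10.3% lower. The median count of the 17 was 2127.5 per library. Of genes outside the receptor families with 1000 counts or more, 43.5% were called between the clones. Whether these rates differ was not tested.

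No receptor gene was called changed after 2 h of 4OHT. By edgeR's quasi-likelihood test with Benjamini-Hochberg adjustment over 50037 intervals, 0 of the 242 members that passed the filter on low counts had an adjusted p under 0.05, and 0.0% of all intervals did. At an unadjusted p under 0.05 there were 3 of 242 members with edgeR and 0 with DESeq2, which also called 0. With the clone letter as a replicate block there were 13 of 242, and 0 were called. Over all intervals these counts were 188 of 50037, 2 of 50398 and 2078 of 50037. The 3 members with edgeR were Taar8a, Vmn1r79 and Vmn1r67, each with an adjusted p of 1.00. Taar8a had counts of 20 and 21 at 0 h and 13 and 13 at 2 h in clones A and B, a log2 difference of -0.88 ± 0.32 (SE). Vmn1r79 had 11 and 13 against 6 and 7, a log2 difference of -1.10 ± 0.42, and Vmn1r67 had 27 and 30 against 56 and 45, a log2 difference of 0.59 ± 0.24. In these counts, not scaled for column totals, the 0 h and 2 h libraries do not overlap for Taar8a, Vmn1r79 or Vmn1r67. This separation is not further evidence of a change. The genes were picked as the smallest p of their families and directions, and such a choice from the same libraries favours it.

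In the fit without the clone letter, the other members picked by this rule had smaller ratios of difference to error. For V2R genes these were Vmn2r8 at 0.09 ± 0.12 and Vmn2r40 at -0.56 ± 0.34 (log2 difference ± SE). For bitter receptors they were Tas2r102 at 0.59 ± 0.31 and Tas2r117 at -0.42 ± 0.32. Tas1r1 had 0.23 ± 0.15 and Taar7e 0.45 ± 0.29. Single libraries moved these values: without clone B at 0 h Tas1r1 was at 0.07 and Vmn2r8 at 0.03, and Taar7e was at 0.15 with the 2 h library of clone B left out and 0.68 with that of clone A left out. With single libraries left out, Tas2r102 ran from 0.35 to 0.84 and Tas2r117 from -0.60 to -0.25. With the clone letter as a replicate block, Tas1r1 had 0.23 ± 0.10, beside Vmn1r79 at -1.09 ± 0.52 and Vmn1r67 at 0.58 ± 0.27. The order of the ratios thus depended on the block, and no member was called with it. In the fit without the clone letter the median SE was 0.31 for Vmn1r, 0.29 for Tas2r, 0.27 for Taar and 0.14 for Vmn2r genes. Changes of the size of 1 such error could not be told from none in single genes. Differences of more than 1 error were not called either, such as -0.88 ± 0.32 in Taar8a and -1.10 ± 0.42 in Vmn1r79.

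By family, the direction over 2 h was even for Vmn1r and mostly downward for Vmn2r, with small sizes. Of the 84 Vmn2r genes tested, 52 (61.9%) were lower at 2 h in both clones and 4 were higher in both, where 24.6% of all genes were lower in both and 24.8% higher. The median log2 difference was -0.07, against 0.00 over all genes. Clone A gave -0.06 and clone B -0.08, and over the alternative scalings, tests and left-out libraries it stayed between -0.11 and -0.07. With column totals in place of TMM factors, 48 were lower in both clones and 3 higher. Comparison sets, with TMM factors, tilted both ways. Olfactory receptor genes had 217 lower in both clones and 136 higher of 756 (median -0.03). Hoxa and Hoxd genes had 11 lower and 2 higher of 20 (median -0.02). Coding genes of 5000 to 40000 bp had 18.6% lower and 31.2% higher (median 0.03). A downward tilt was thus not confined to Vmn2r genes, though their 61.9% was the largest share among these sets. In Vmn1r, 28 were lower and 28 higher in both clones of 106. In Tas2r, 6 were lower and 9 higher of 34, and in Taar 2 were lower and 6 higher of 15. The medians of Tas2r and Taar, 0.04 and 0.08, were below 0 in at least 1 setting that left out a library: without clone B at 2 h they were -0.00 and -0.05, and without clone A at 0 h that of Taar was -0.05. Neighbouring genes and genes of near-identical upstream sequence share libraries and may share reads and chromatin, so members are not independent replicates. No test was made of these counts.

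**Figure D4:**
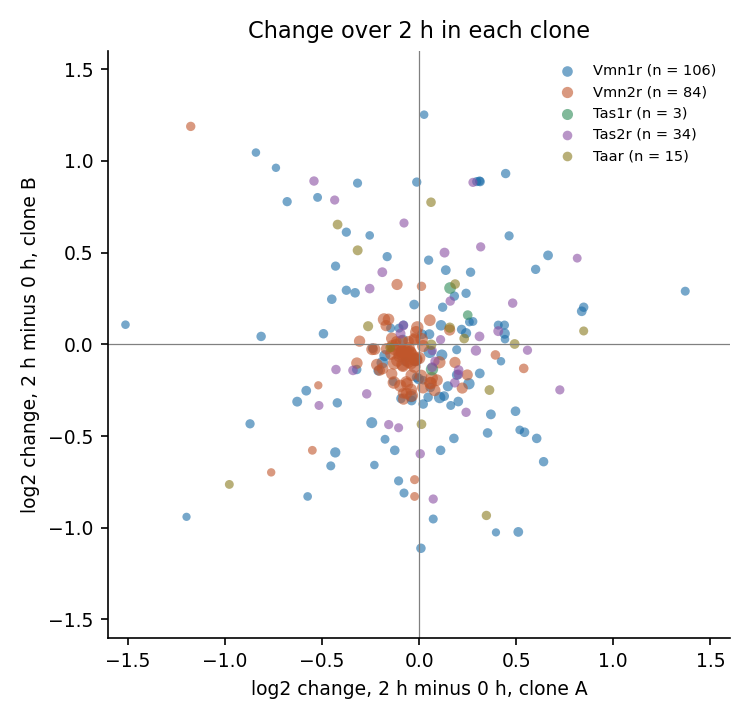
Log2 change from 0 h to 2 h in clone A (x axis) and clone B (y axis) for the 242 tested receptor genes; colour is the family and larger points have more counts. Vmn2r genes cluster just below and left of the origin, with 52 of 84 in the lower left part, while Vmn1r and Tas2r genes scatter widely in all directions around 0.

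The clones differed at some receptor genes. With the libraries of both times pooled, edgeR called 16 of 242 members (6.61%) between clone A and clone B, 10 higher and 6 lower in clone A. Each side is a single clone whose libraries of both times served as replicates. The p-values therefore measure the spread between libraries of the same clone, treatment included, and not the spread among clones. Over all intervals 27.5% were called, 17.3% higher and 10.3% lower. With DESeq2 size factors the members' split was 5 higher and 7 lower, and with column totals 5 and 8. Calls become more frequent with counts, and most receptors have few: under 100 counts, 3.80% of members (6 of 158) and 7.24% of other genes were called, from 100 to 1000 counts 10.4% and 24.3%, and from 1000 counts 17.6% and 43.5% (3 of 17 members). Whether the rates differ was not tested. By family, 5 Vmn1r, 10 Vmn2r, 1 Tas2r, 0 Tas1r and 0 Taar genes were called.

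The calls with the smallest p were V2R genes with modest differences. Vmn2r83 on chromosome 10 had densities of 0.461 at 0 h and 0.425 at 2 h in clone A, against 0.377 and 0.328 in clone B, a log2 difference of 0.34 ± 0.08 (SE, adjusted p = 0.000122, edgeR). Without clone B at 2 h it was 0.21 and was not called. Vmn2r27 on chromosome 6 had 0.332 and 0.331 in clone A against 0.267 and 0.278 in clone B, a log2 difference of 0.30 ± 0.07. Vmn2r19 went the other way at -0.28 ± 0.07, and was not called without clone B at 0 h (-0.18). Vmn2r129 on chromosome 4 had 0.288 and 0.257 in clone A against 0.409 and 0.372 in clone B, a log2 difference of -0.51 ± 0.13. In all 4 genes both libraries of 1 clone were above both of the other, which a call from these same libraries favours. These 4 were also the members that DESeq2 called, and Vmn2r27 and Vmn2r129 were called in every setting tried.

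Each of the following calls was lost when at least 1 single library was left out. Vmn1r1, the V1R gene of highest density, differed by -0.63 ± 0.22, and lost the call when the 0 h library of clone A (-0.52) or the 2 h library of clone B (-0.62) was left out. Vmn1r32 differed by 0.48 ± 0.14 (0.40 with clone A at 0 h left out and 0.42 with the 2 h library of clone B left out, neither called). Vmn1r43, with counts of 11 and 18 in clone A against 20 and 40 in clone B, differed by -0.99 ± 0.34, and lost the call when a clone A library (0 h, -0.85; 2 h, -1.19) or the 2 h library of clone B (-0.49) was left out. Vmn1r34 differed by 0.71 ± 0.27 and was not called without any 1 of the 4 libraries, at 0.61 to 0.82. Vmn2r49, in the chromosome 7 cluster, differed by -0.39 ± 0.13 and was not called without clone A at 2 h (-0.37). Vmn2r76 differed by 0.26 ± 0.09, and lost the call when a clone B library (0 h, 0.28; 2 h, 0.20) or the 0 h library of clone A (0.22) was left out. The bitter receptor Tas2r130 differed by 0.65 ± 0.27 at an adjusted p of 0.0495 (edgeR) and lost the call in every alternative that gave an adjusted p: at 0.53 to 0.74 with a library left out, at 0.65 with time as a term (replicate block, adjusted p = 0.0591, edgeR), and with each other scaling, filter or set of intervals. The 5 called members not covered so far were Vmn2r57, Vmn2r82, Vmn2r9 and Vmn1r183, higher in clone A, and Vmn2r33, lower in it, at adjusted p of 0.0350 to 0.0496 (edgeR), and none was called in every setting. Vmn2r57 differed by 0.16 ± 0.06, but by -0.00023 with the 2 h library of clone B left out, and by 0.14, not called, with the 0 h library of clone A left out. Vmn2r82 (0.17 ± 0.07) lost the call with any library but clone A at 2 h left out (0.12 to 0.18). Vmn2r9 (0.25 ± 0.10) lost it with any but clone B at 0 h left out (0.10 to 0.27). Vmn1r183 (0.69 ± 0.28) lost it with either 2 h library left out (0.48 for clone A, 0.43 for clone B) and with the replicate block (adjusted p = 0.0589, edgeR), and Vmn2r33 (-0.71 ± 0.28) with any 1 library left out (-0.95 to -0.54). With DESeq2 size factors or column totals Vmn2r57, Vmn2r82, Vmn2r9 and Vmn1r183 were not called. The members with the smallest p in the other directions and families were not called: Tas2r126 at -0.42 ± 0.24, Tas1r1 at 0.24 ± 0.10, Taar7a at 0.28 ± 0.26 and Taar7d at -0.31 ± 0.25. Tas1r1 was called with the 0 h library of clone A left out (0.31) or the 2 h library of clone B left out (0.38), but had 0.09 with clone B at 0 h left out and 0.15 with the 2 h library of clone A left out. Taar7d ran from -0.61 (clone A at 2 h left out) to -0.11 (clone A at 0 h left out), and Taar7a was at 0.14 with clone A at 2 h left out.

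**Figure D5:**
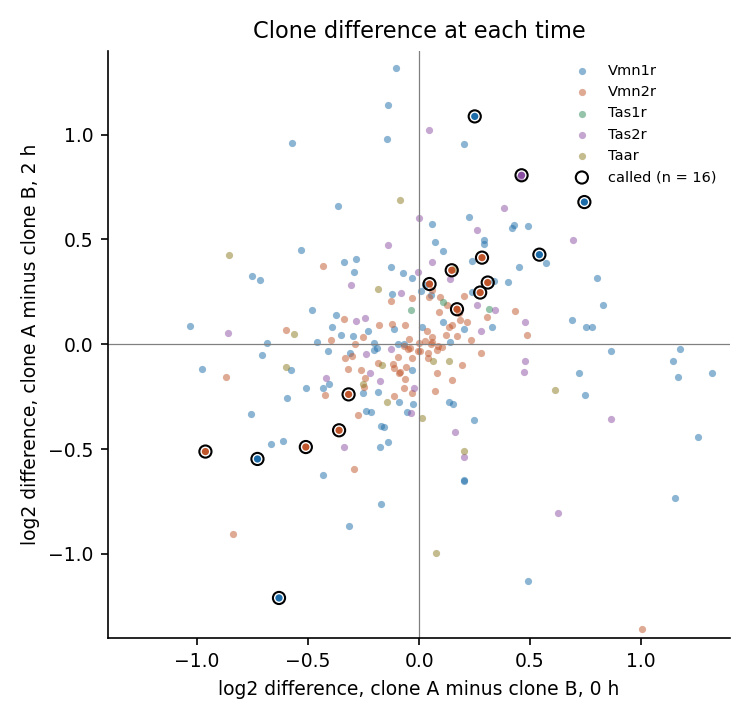
Log2 difference of clone A minus clone B at 0 h (x axis) and at 2 h (y axis) for the 242 tested receptor genes, coloured by family, with the 16 called genes circled. The circled genes lie in the upper right (10) or lower left (6). The call used these same libraries as replicates, so it favours genes with the same direction at both times.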

How the data were processed

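H3K27me3 was measured by chromatin immunoprecipitation and sequencing, with 1% formaldehyde for 10 min, per the labels' protocols. The authors deposited read counts per transcript interval, 1 column per library, per the file headers. Bowtie2, bedtools and build mm10 are named in the submitters' processing notes; no version, counting option or handling of reads with several placements is stated there. The table's 12 derived columns and the 4 input samples were not analysed here.

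Intervals were matched to RefSeq genes (GRCm38.p6). Densities used column totals and are descriptive. All 50398 intervals entered edgeR 4.0.16 (R 4.3.3, filterByExpr, TMM, quasi-likelihood test, Benjamini-Hochberg, threshold 0.05), and DESeq2 1.42.0 was the alternative. The edgeR test was also run on simulated data. Those data had no clone differences, and their changes were placed in intervals with more counts than most receptor genes have. They do not show how the test performs for these genes. Log2 values per clone used a prior count of 0.5. Each clone gave a library at 0 h and at 2 h, so the clone letter pairs libraries: clone A's deviations from the time means at 0 h and 2 h correlated at 0.51 over intervals. Members named in the text were, per family, the 3 of highest and 2 of lowest density (at least 20 counts), those with the smallest p per direction and comparison, and up to 10 called between clones; others are marked. The members and lists were chosen with earlier results of these data known.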

Additional observations from a re-analysis of the deposited data

Results flagged for a closer look

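In the Vmn1r family the median log2 change over 2 h was 0.0236 for clone A but -0.0600 for clone B, opposite directions with a difference of 0.0835. In the Tas2r family the medians were 0.0773 for clone A but -0.0331 for clone B, a difference of 0.110. Neither difference was tested, since there is 1 library per clone and time.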

How the results depend on the processing

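The count of members called over 2 h was 0 in every alternative, including the clone letter as a replicate block (0). Between the clones, 16 members were called, 14 with time as a term (replicate block), 4 with DESeq2, where 83 members had an adjusted p, and 8 to 11 when single libraries were left out; 4 to 10 of those were among the 16. The median density of all members (0.315) was 0.298 with members of at least 1000 bp, 0.309 to 0.319 with single libraries left out and 0.324 without genes sharing 75% or more of their 30-base words, an alternative chosen after seeing the data. The Vmn1r median (0.325) was 0.342 with members of at least 1000 bp and 0.316 to 0.336 with single libraries left out. The Vmn2r median (0.284) was 0.274 to 0.285 with single libraries left out and 0.299 without the shared genes. The Tas2r median (0.364) was 0.423 with members of at least 1000 bp. A limit of 2 times in place of 4 times the median gene took in 4 members, and 8 times took in 0. Apart from fewer genes or libraries entering, the cause of these shifts was not tested. Of the log2 differences of receptor genes named from a comparison, 1 changed sign: Vmn2r57 between the clones, at 0.16, ran from -0.00023 to 0.30 with single libraries left out. Pathway genes are not covered by this. Precision is limited by counts of about 28 per library in Vmn1r and Tas2r genes and by 2 clones per time.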
